A study of Mus musculus with 6 samples.

Results

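Serum amyloid A and lipocalin 2 are secreted acute-phase proteins, and the genes described here are 6 rows of a single-cell count matrix of mouse bone marrow-derived macrophages: the 3 serum amyloid A paralogs Saa1, Saa2 and Saa3, the lipocalin gene Lcn2, the scavenger receptor gene Marco and the protease inhibitor gene Slpi. They were chosen by name, and all 6 were found among the 18428 gene symbols of the matrix. They were picked with earlier results of these samples known, so that their differences after LPS and between genotypes are descriptions. Macrophages were cultured from bone marrow of mice on a mixed strain background with either wild-type Rad21 (WT/WT) or floxed Rad21 alleles (lox/lox), the latter called Rad21-/- after deletion. Rad21 is a subunit of the cohesin ring that holds DNA loops together. Both genotypes carried ERt2Cre, a Cre recombinase fused to the estrogen receptor, at both Rosa26 copies, and the culture protocol gives 4-hydroxytamoxifen at 200 nM during differentiation without setting either genotype apart, so the deletion was made in culture. How many mice each sample came from is not given in the sources used here. Cells were left untreated or received lipopolysaccharide (LPS, a cell wall component of Gram-negative bacteria that activates macrophages through TLR4) at 10 ng/ml for 2 or 8 h, were sorted singly into wells and were measured by MARS-seq, which counts transcript molecules near their 3′ ends by unique molecular identifiers (UMIs). Each of the 6 conditions is 1 sample, so no difference below has a replicate check, no test was run, and every interval is a 95% interval for counting error only. The level of a gene is given in CPM, its UMIs per 1000000 UMIs, over all cells of a sample or of a named group of cells, unless the CPM of single cells is named.

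After removal of 17 wells with more than 25000 UMIs, 1345 of 1362 cells remained, and these hold the values below unless stated. They were 238 untreated, 181 2 h and 253 8 h wild-type cells, and 267, 184 and 222 Rad21-/- cells. Samples held 1197415 to 1734640 UMIs, with medians of 5544 to 7043 UMIs per cell, the highest of them in Rad21-/- cells at 8 h. No pool and well was shared by 2 cells. The 24 library pools each held a single time point, so pool and time cannot be told apart, whereas 23 pools held both genotypes. Wild-type cells occupied wells 1 to 92 of a pool and Rad21-/- cells the higher wells, except 13 Rad21-/- cells in 2 pools, so well position and genotype cannot be told apart outside these cells. Rad21 itself was found in 25.6% (untreated), 24.9% (2 h) and 18.2% (8 h) of wild-type and in 2.62%, 5.43% and 5.41% of Rad21-/- cells, which gives log2 ratios of −3.56, −2.67 and −2.30. The sources used here do not state where the deleted part lies relative to the counted ends. Of 8 macrophage markers, all 8 were detected in every sample, with summed levels of 6214 to 10636 CPM. Of 12 neutrophil markers, 3 were rows of the matrix. They were at 8.30 (untreated), 12.5 (2 h) and 61.1 (8 h) CPM in wild-type cells and at 11.5, 9.61 and 43.2 in Rad21-/- cells, mostly from the receptor gene Csf3r, while Camp, an antimicrobial granule protein, had no UMI in 4 samples. The sum of this list moved with the 6 genes at 8 h, and its part in their levels was not tested. Single markers differed at 8 h. Camp had 4 UMIs in wild-type and 19 in Rad21-/- cells, a log2 ratio of 2.09 (0.50 to 4.11), whereas S100a8 had 12 and 4. None of 8 hepatocyte markers was a row of the matrix, and the mast cell, B cell, T cell, fibroblast and epithelial lists were each at 8.65 to 44.1 CPM.

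As background, serum amyloid A proteins are small apolipoproteins that bind high-density lipoprotein and reach very high plasma levels in infection and injury. In mice, Saa1 and Saa2 are known mainly as products of the liver, whereas Saa3 is known as the form made by macrophages and adipose tissue. Lcn2 captures bacterial iron-binding siderophores, Marco is a class A scavenger receptor that binds bacteria, and Slpi inhibits neutrophil elastase. These genes are known targets of NF-kappaB and C/EBP factors, which LPS and the cytokines IL-1, TNF and IL-6 activate.

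The Saa genes lie in 1 cluster on mouse chromosome 7, in the order Saa3 (chr7:46711998-46719615), Saa4 (chr7:46727992-46732603), Saa1 (chr7:46740497-46743181) and Saa2 (chr7:46751833-46754313), in the RefSeq annotation of GRCm38.p6. Saa4 has no row in the matrix. Lcn2 (chr2:32384637-32387739) and Slpi (chr2:164354070-164356507) lie on chromosome 2, and Marco (chr1:120474538-120505024) on chromosome 1. RefSeq lists Saa1 and Saa2 as former names of each other, and their longest GENCODE vM1 coding transcripts are 93.4% identical, with a longest identical run of 76 bases. Saa3 was 70.8% identical to Saa1 and 74.3% to Saa2. The authors kept only reads with an unambiguous position, so reads from stretches that Saa1 and Saa2 share would not have been counted, and the split between these 2 rows is uncertain.

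The 250 bases before the RefSeq start sites of the 4 genes with the largest counts at 8 h are shown for their motifs (GRCm38.p6, gene strand). The starts that RefSeq's promoter table lists for Saa3 and Saa1 lie inside the gene spans given above, so these windows precede an inner transcript start. Capitals mark TTGCNNAA, the letters of a C/EBP-like site searched on both strands, and no match to the NF-kappaB consensus, which would also be in capitals, lay in any of the 6 windows. Saa3 is at chr7:46715677-46715926 (minus strand), Saa2 at chr7:46751583-46751832 (plus strand), Saa1 at chr7:46742981-46743230 (minus strand) and Lcn2 at chr2:32387740-32387989 (minus strand).
Saa3: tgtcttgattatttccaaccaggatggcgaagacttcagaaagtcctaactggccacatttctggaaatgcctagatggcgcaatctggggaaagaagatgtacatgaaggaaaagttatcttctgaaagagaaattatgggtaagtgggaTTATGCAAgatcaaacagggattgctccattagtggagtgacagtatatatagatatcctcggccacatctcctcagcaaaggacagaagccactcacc
Saa2: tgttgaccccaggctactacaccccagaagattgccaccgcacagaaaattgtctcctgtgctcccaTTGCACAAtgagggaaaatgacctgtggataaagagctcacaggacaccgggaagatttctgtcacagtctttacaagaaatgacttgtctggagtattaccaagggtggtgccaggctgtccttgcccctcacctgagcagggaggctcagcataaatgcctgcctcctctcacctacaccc
Saa1: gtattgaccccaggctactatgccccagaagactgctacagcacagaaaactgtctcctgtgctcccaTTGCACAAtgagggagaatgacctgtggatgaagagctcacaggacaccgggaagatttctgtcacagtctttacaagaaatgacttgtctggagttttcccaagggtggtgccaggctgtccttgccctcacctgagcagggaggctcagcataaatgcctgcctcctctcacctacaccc
Lcn2: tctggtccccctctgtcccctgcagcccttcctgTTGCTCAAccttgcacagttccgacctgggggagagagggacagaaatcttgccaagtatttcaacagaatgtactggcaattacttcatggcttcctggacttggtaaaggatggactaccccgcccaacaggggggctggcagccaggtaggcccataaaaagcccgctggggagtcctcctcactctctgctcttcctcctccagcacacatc

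The C/EBP-like letters began 99 bases before the start of Saa3, 183 before Saa2, 182 before Saa1 and 216 before Lcn2. The Slpi window held them 241 bases before its start, and the Marco window did not hold them. Of 32851 promoter windows of the same length, 9.56% held a match. The NF-kappaB consensus was in 3.90% of them. A looser form, GGG and CC with any 5 bases between them, was in 45.8% of all windows and in those of Saa1, Saa2, Lcn2 and Marco, but not in those of Saa3 and Slpi. An ISRE-like run, a pair of GAAA with any 2 bases between them, which was in 2.98% of windows, began 125 bases before the start of Saa3 and was in no other of the 6. TTCNNNGAA (STAT-like, 7.02% of windows) and TGANTCA (AP-1-like, 6.75%) were in none of the 6. All motifs were read on both strands, and these letter matches say nothing of binding.

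The first question was how these genes responded to LPS in wild-type macrophages. Saa3 went from a transcript of few cells to 1 of the most abundant of all. The fraction of cells with at least 1 Saa3 UMI was 10.5% (6.91 to 15.1%) without LPS, 31.5% (24.8 to 38.8%) after 2 h and 100% of 253 cells (98.6 to 100%) after 8 h. The sample-wide level was 45.0 CPM untreated, 191 at 2 h and 13708 at 8 h. At 8 h the row held 1.37% of all UMIs, and 3 rows had more. The log2 ratio was 2.09 (1.69 to 2.51) for 2 h against untreated and 8.25 (7.90 to 8.63) for 8 h against untreated, a 305-fold difference. Most of it arose after 2 h, with a log2 ratio of 6.16 between 8 and 2 h.

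Saa2, Saa1 and Lcn2 were nearly silent until 2 h and common at 8 h. Saa2 had 0 UMIs in 238 untreated cells, so that, by the limit of 3 counts, at most 1.26% of cells had a detectable UMI, 6 UMIs at 2 h and 573 UMIs at 8 h in 76.3% of cells (70.6 to 81.4%). Its 8 h level of 368 CPM was at least 177.4-fold above untreated, with 3 counts per sample as the limit of a count of 0. Saa1 had 1, 2 and 220 UMIs and was found in 50.6% of cells at 8 h (44.3 to 56.9%). Its log2 ratio of 8 h against untreated, 7.67 (5.18 to 12.99), rests on the single untreated UMI and was at least 5.96 without the pool that held it. Lcn2 had 0, 1 and 1181 UMIs. It was in 76.3% of cells at 8 h (70.6 to 81.4%), at 759 CPM and at least 366-fold above untreated. All 4 genes thus had most of their UMIs in the last interval of the time course.

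Marco and Slpi were found in few cells. Marco had 1, 2 and 45 UMIs, and at 8 h it was in 11.5% of wild-type cells (7.81 to 16%). Slpi had 8, 8 and 64 UMIs and was in 3.36%, 2.21% and 10.3% of cells. The Slpi level of 8 h against untreated differed by 2.89 on the log2 scale (1.83 to 4.17), but 24 of the 64 UMIs at 8 h came from 1 cell, and it was 2.13 without the pool that held 29 of them. Among genes with at least 30 UMIs in the 2 samples together, 6.85% were at least 2-fold higher at 8 h than untreated in wild-type cells, and 6 of the 6 genes were. Saa1, Saa2, Lcn2, Marco and Slpi had at most 8 untreated UMIs and met this minimum only through the 8 h sample. They could therefore only be counted as higher, and the count of 6 carries no weight beyond Saa3. The median log2 ratio of all tested genes was −0.27 in that comparison.

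**Figure D1:**
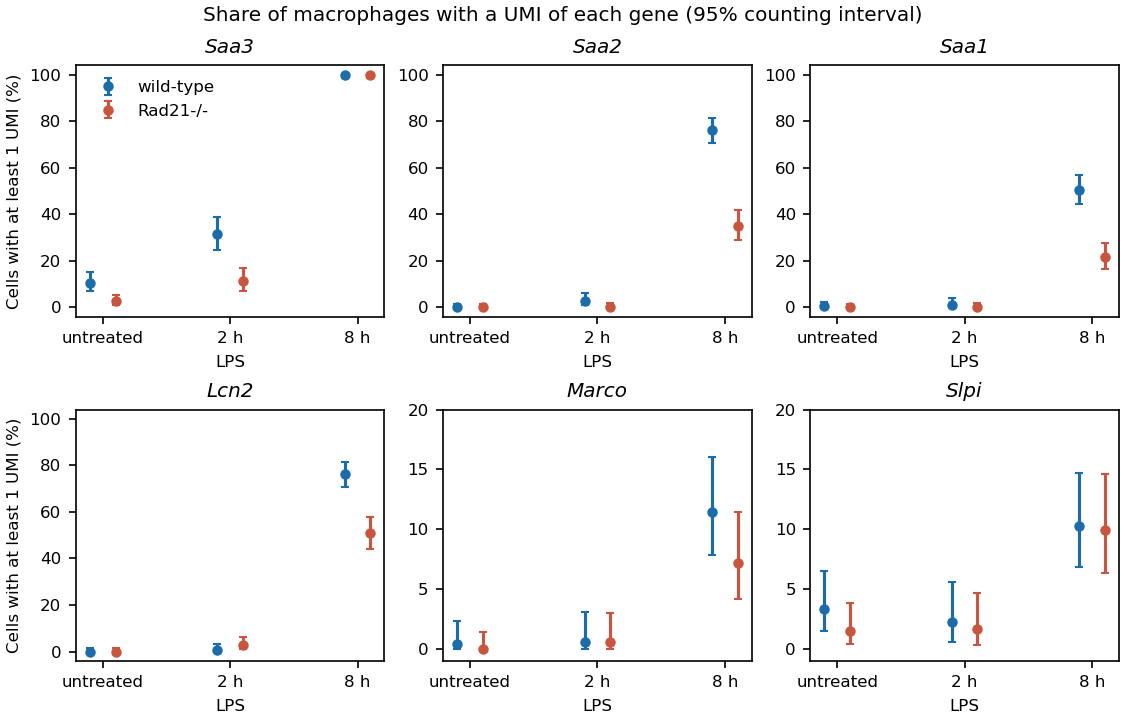
Fraction of cells with at least 1 UMI (y axis, percent) against LPS time (x axis) for each gene, in wild-type (blue) and Rad21-/- cells (red), with bars for the 95% counting interval of 1 sample each; the Marco and Slpi panels end at 20%. Saa3 reached 100% in both genotypes at 8 h, whereas Saa2, Saa1 and Lcn2 reached lower fractions in Rad21-/- cells and the Slpi intervals overlapped.

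Rad21-/- macrophages likewise had most UMIs of each gene at 8 h. Saa3 was found in 2.62% (1.06 to 5.33%) of untreated cells, 11.4% (7.21 to 16.9%) of 2 h cells and 100% of 222 8 h cells (98.4 to 100%), at 5.46, 50.5 and 5731 CPM. The log2 ratio of 8 h against untreated was 10.04 (9.11 to 11.16). It rests on 9 untreated UMIs, of which 8 lay in 1 of 8 pools, and became 12.85 without that pool. Saa2 and Saa1 had no UMI in untreated and 2 h cells and 242 and 88 UMIs at 8 h, at least 76.6-fold and 27.9-fold above untreated. Lcn2 had 0, 5 and 341 UMIs and its log2 ratio of 8 h against untreated was at least 6.75. Marco had 0, 1 and 26 UMIs, and Slpi 4, 3 and 28. Of all genes tested, 6.71% were at least 2-fold higher at 8 h than untreated in Rad21-/- cells, beside 5 of 5 of these genes, since Marco was under the minimum of 30 UMIs. All 5 met that minimum only through the 8 h sample, so they could only be counted as higher. Between 8 and 2 h the corresponding background was 6.02%, and it was 7.04% in wild-type cells, where 6 of 6 were at least 2-fold higher. In both genotypes the genes other than Saa3 met the minimum only through the 8 h sample here too.

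The second question was how the genotypes differed at each time. For Saa3, the Rad21-/- level was lower at all 3 times. The log2 ratio of Rad21-/- against wild-type was −3.04 (−4.23 to −2.03) without LPS, −1.92 (−2.35 to −1.51) after 2 h and −1.26 (−1.29 to −1.22) after 8 h, the last a 2.39-fold difference. The early ratios rest on few cells and pools. Among pools with 10 or more cells of both genotypes, the Rad21-/- level was lower in 5 and higher in 0 of 8 untreated pools. At 2 h it was lower in 3 and higher in 1 of 4. Of the 65 untreated wild-type UMIs, 28 lay in the 27 cells of 1 pool, and 40 of the 63 Rad21-/- UMIs at 2 h came from 1 cell. Without the highest cell of each sample the ratio at 2 h was −3.22, and leaving out single pools moved it between −3.38 and −1.24. In untreated cells the corresponding range was −5.70 to −2.23. Among all genes, 4.57% were at least 2-fold lower in untreated Rad21-/- cells and 5.32% at 2 h, and Saa3 was the only 1 of the 6 with enough UMIs to be counted at these times.

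At 8 h, where both fractions were 100%, Saa3 differed in level per cell. The mean of ln(CPM + 1) over cells was 9.40 in wild-type and 8.27 in Rad21-/- cells. The median cell was at 13824 CPM against 3121 CPM. The interquartile range was 10022 to 18458 CPM in wild-type and 2086 to 8506 CPM in Rad21-/- cells. The extremes were 994 and 35294 CPM in wild-type and 180 and 28852 CPM in Rad21-/- cells, so the ranges overlapped almost in full. No cell type without Saa3 was in the samples, so the share of stray UMIs in these wells was not measured. Rad21-/- cells with a Rad21 UMI, 12 in number, had a median of 5170 CPM (1876 to 25133), and those without had a median of 3044 CPM (180 to 28852).

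**Figure D2:**
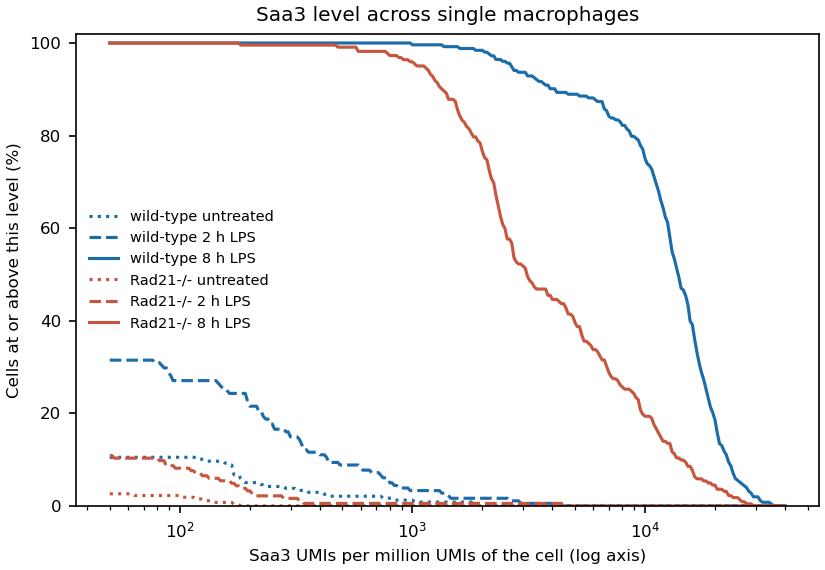
Percent of cells (y axis) at or above a given Saa3 level (x axis, CPM, log axis) for each of the 6 samples. The 8 h curves start together at 100% and separate above about 1000 CPM, where 99.6% of wild-type and 95.9% of Rad21-/- cells lie, to 75.1% and 19.4% at 10000 CPM.

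The shapes of the distributions differed. In wild-type cells at 8 h the counts per 2000 CPM peaked with 37 cells between 12000 and 14000 CPM, and a smaller group of 21 cells lay between 2000 and 4000 CPM, next to only 5 cells between 4000 and 6000 CPM. In Rad21-/- cells the highest count, 71 cells, lay between 2000 and 4000 CPM and was followed by a tail. Below 4000 CPM were 9.88% of the wild-type and 55.4% of the Rad21-/- cells, and at or above 16000 CPM were 39.1% and 7.66%. Rad21-/- cells also shared the transcript less evenly, as the highest 10% of cells held 34.3% of the Saa3 UMIs against 20.3% in the wild type. Cells at or above 1000 CPM at 2 h numbered 6 in the wild-type and 1 in the Rad21-/- sample.

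**Figure D3:**
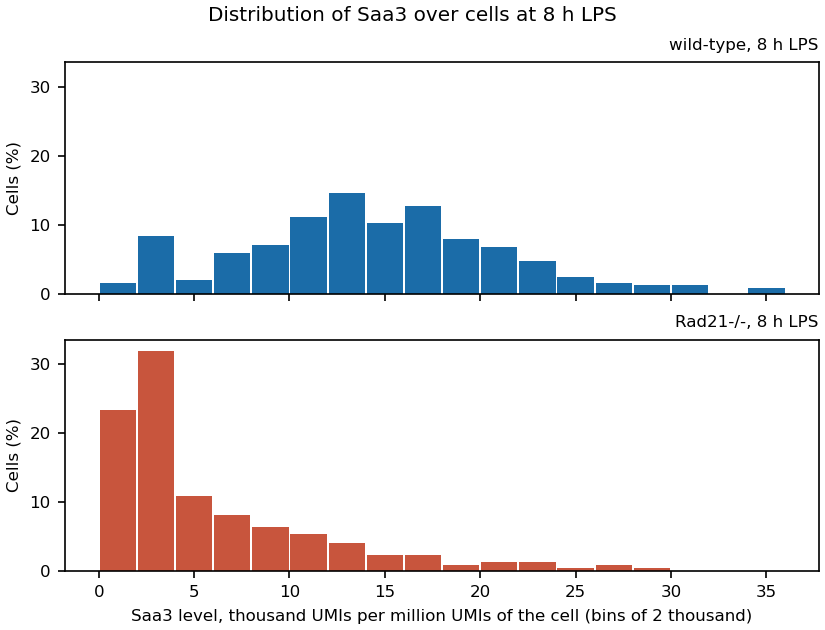
Percent of 8 h cells (y axis) per bin of 2000 Saa3 CPM (x axis, in units of 1000 CPM) in wild-type (top, 253 cells) and Rad21-/- (bottom, 222 cells). Wild-type cells peak between 12000 and 14000 CPM with a small separate bar between 2000 and 4000 CPM, which is the bin of the Rad21-/- peak.

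Of the other genes at 8 h, Lcn2 had the lowest ratio. It was found in 50.9% of Rad21-/- cells (44.1 to 57.7%) against 76.3% of wild-type cells, at 197 against 759 CPM, a log2 ratio of −1.95 (−2.13 to −1.77). Rad21-/- cells were deeper, and after thinning every cell to 3800 UMIs, which left out 29 wild-type and 21 Rad21-/- cells, the fractions were 29.4% against 69.6%. Lcn2 level in positive cells, as the mean of ln(CPM + 1), was 5.5 against 6.57. Saa2 was in 35.1% (28.9 to 41.8%) against 76.3% of cells, or 25.9% against 63.4% after thinning, with a log2 ratio of −1.40 (−1.62 to −1.18). Saa1 was in 21.6% (16.4 to 27.6%) against 50.6%, or 12.9% against 38.4% after thinning, with −1.48 (−1.85 to −1.12). For these 3 genes both the fraction of cells and the sample-wide level were lower, and the intervals of the genotypes did not overlap.

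Marco and Slpi were less clear. Marco was in 7.21% (4.18 to 11.4%) against 11.5% of cells, with a log2 ratio of −0.95 (−1.70 to −0.22) and overlapping fractions. The pool with 21 of the 45 wild-type Marco UMIs moved this ratio most, to −0.26 when left out. Slpi was in 9.91% (6.32 to 14.6%) against 10.3% of cells, although its log2 ratio was −1.35 (−2.05 to −0.69). Without the highest cell of each sample the Slpi ratio was −0.89 (−1.69 to −0.13), and it was −0.60 without the pool that held 29 of the 64 wild-type UMIs. Of all genes tested at 8 h, 4.64% were at least 2-fold lower in Rad21-/- cells, beside 5 of the 6 genes. The 5 include Slpi, which did not reach 2-fold without the highest cell of each sample or without that pool. The median log2 ratio of all genes was 0.21.

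At 8 h, 6 library pools had 10 or more cells of both genotypes. Within them, the Rad21-/- level was lower in 6 of 6 pools for Saa1, Saa2, Saa3 and Lcn2. For Saa3 the pools ranged from 11215 to 15560 CPM in wild-type and from 3906 to 6682 in Rad21-/- cells, with log2 ratios of −1.61 to −1.04. Lcn2 levels were 600.3 to 881 against 14.1 to 266 CPM, Saa2 levels 213 to 617 against 56.3 to 205, and Saa1 levels 84.4 to 184 against 35.1 to 73.7, so that these pool values did not overlap between genotypes. The Lcn2 fractions did, at 60% to 93% against 12.5 to 72.7%. Marco was lower in 5 of 6 pools and without a UMI in either genotype in the other, and Slpi was lower in 3 and higher in 3. Pools of a time point are not separate cultures as far as the labels say, and they are no replicates of a genotype.

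**Figure D4:**
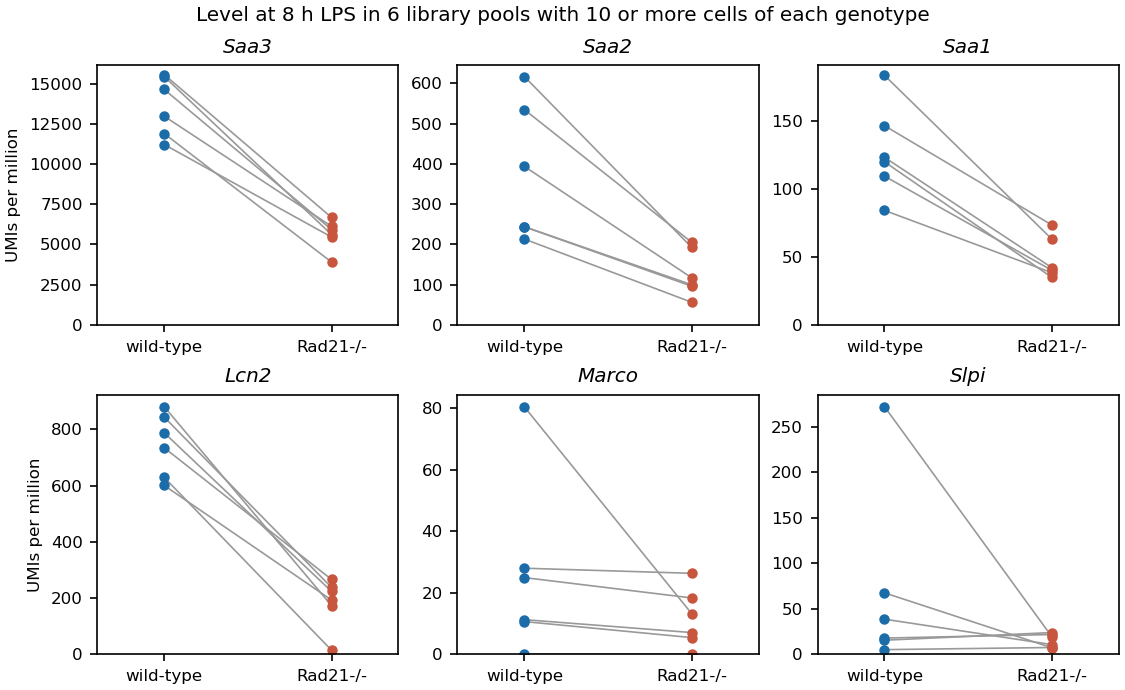
Level at 8 h (y axis, CPM, from 0) in wild-type (blue) and Rad21-/- cells (red) of the same library pool, joined by a line, for the 6 pools with 10 or more cells of each. All lines fall for Saa3, Saa2, Saa1 and Lcn2, and the Slpi lines run in both directions, with 1 wild-type pool at 272 CPM.

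The third question was whether single cells carried several of these transcripts together. Saa2 was detected at 8 h only in cells with Saa3, because every cell had Saa3. At 2 h, 5 of the 57 wild-type cells with Saa3 had Saa2, and no cell without Saa3 did. Of the 3 paralogs, wild-type cells at 8 h had 1 in 18.2%, 2 in 36.8% and all 3 in 45.1% of cells, whereas Rad21-/- cells had 1 in 60.4%, 2 in 22.5% and 3 in 17.1%. Saa1 was found in 59.1% (51.8 to 66.1%) of wild-type cells with Saa2 and in 23.3% (13.4 to 36.0%) of those without. In Rad21-/- cells the fractions were 48.7% (37.2 to 60.3%) and 6.94% (3.38 to 12.4%). Both transcripts were in 45.1% of wild-type cells, where the product of the 2 fractions is 38.6%, and in 17.1% of Rad21-/- cells, where the product is 7.60%. After thinning, Saa1 was in 46.5% of wild-type cells with Saa2 and 24.4% without, and in 36.5% and 4.70% of Rad21-/- cells. Since reads may be split between these rows, this pair is the least certain.

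Over cells of 1 sample, Saa2 and Saa3 CPM had a Spearman rho of 0.61 in 253 wild-type cells and 0.73 in 222 Rad21-/- cells at 8 h. Within single pools rho was 0.42 to 0.73 and 0.54 to 0.83. For Saa1 and Saa3 it was 0.47 and 0.46. It was lower for Saa3 and Lcn2, at 0.29 and 0.33, and for Saa2 and Lcn2, at 0.09 and 0.25, and these low values in sparse counts are given only for completeness. Slpi was near 0 with Saa3, at 0.01 and −0.01. Saa3 CPM and the total UMIs of a cell had a rho of −0.17 and 0.02. Cells of a sample share pools and depth, so no p-value is given.

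When 8 h cells were grouped by their Saa3 level, the 2 genotypes had overlapping Saa2 fractions at the same level. Below 4000 Saa3 CPM, Saa2 was in 12% of 25 wild-type (2.55 to 31.2%) and 4.88% of Rad21-/- cells (1.81 to 10.3%). Between 4000 and 8000 CPM it was in 55.0% of 20 and 54.8% of 42 cells. Between 8000 and 12000 CPM it was in 76.1% of 46 and 76.9% of 26 cells. Between 12000 and 16000 CPM it was in 82.5% of 63 and 92.9% of 14 cells, and at or above 16000 CPM in 92.9% of 99 and 94.1% of 17 cells. The intervals overlapped in all 5 groups, and several are wide. Saa1 fractions overlapped as well, from 8% and 6.50% in the lowest group to 66.7% and 76.5% in the highest. These fractions were not thinned, and Rad21-/- cells had the higher median of UMIs per cell in all 5 groups.

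Saa2 levels in these groups also had overlapping intervals in all 5. They were 19.9 (4.11 to 58.2) and 8.39 (3.62 to 16.5) CPM in wild-type and Rad21-/- cells of the lowest group. In the highest group they were 630 (565 to 699) and 763 (598 to 960). Lcn2 did not follow this pattern in level. Its level in these groups was 232 (161.8 to 323), 594 (469 to 742), 619 (537 to 709), 675 (595 to 762) and 1081 (997 to 1171) CPM in wild-type cells, from the lowest to the highest Saa3 group. In Rad21-/- cells it was 80.7 (63.7 to 101), 137.7 (101 to 184), 438 (356 to 533), 257 (176 to 362) and 910 (729 to 1122). The Rad21-/- value was lower with separate intervals in the 4 groups below 16000 CPM, and the intervals overlapped in the highest group. The fraction of cells with Lcn2 overlapped in all 5 groups, for example at 40% (21.1 to 61.3%) and 42.3% (33.4 to 51.5%) below 4000 CPM and at 80% (56.3 to 94.3%) and 52.4% (36.4 to 68.0%) between 4000 and 8000 CPM. The fractions were not thinned, and Rad21-/- cells had the higher median of UMIs per cell in all 5 groups, for example 7018 against 6452 below 4000 CPM. Intervals here treat UMIs as independent, while UMIs of 1 cell are not.

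**Figure D5:**
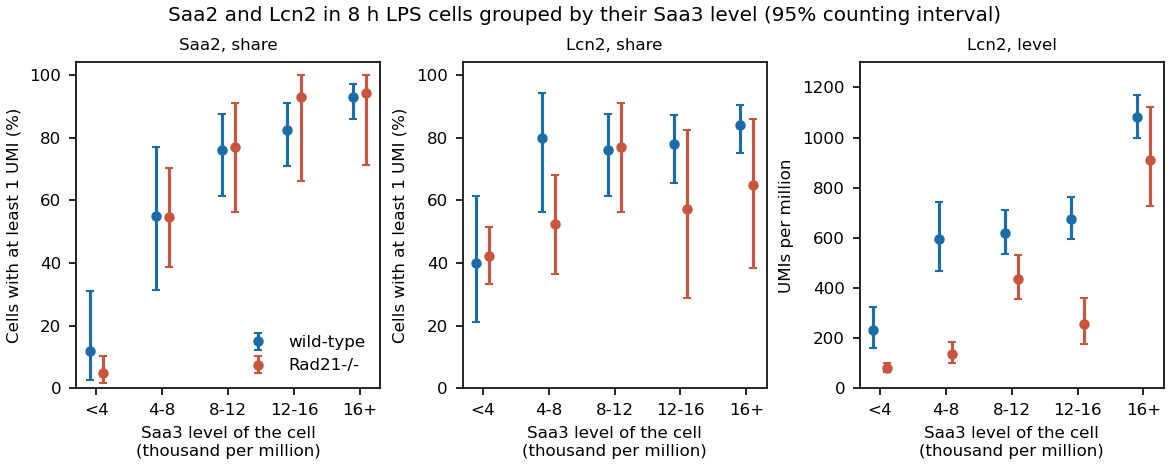
Fraction of 8 h cells with Saa2 (left) and with Lcn2 (middle) and Lcn2 level in CPM (right) in 5 groups of cells by Saa3 level (x axis, in units of 1000 CPM), wild-type in blue and Rad21-/- in red, with 95% counting intervals. Saa2 and Lcn2 fractions of the genotypes overlap in each group. The Lcn2 level is lower in Rad21-/- cells in the 4 groups below 16000 CPM.

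Other acute-phase genes gave a mixed picture at 8 h. Of a list of 24, 10 had enough UMIs, and 9 were at least 2-fold higher at 8 h than untreated in wild-type and 8 in Rad21-/- cells (6.85% and 6.71% of all genes). Cfb, complement factor B of the alternative pathway, had 2 and 447 UMIs in wild-type cells, a log2 ratio of 7.70 (5.84 to 10.75), and its rows share a locus with the predicted gene Gm20547, so that their reads may be split. Ptx3, a long pentraxin, was at 6.22 (3.70 to 11.54), from 1 UMI to 80. The hemoglobin-binding protein gene Hp went from 0 to 117 UMIs, a log2 ratio of at least 5.18. Cfb, Ptx3, Hp, Cp, Steap4, Serpina3f and Serpina3g had at most 8 untreated UMIs in either genotype. They met the minimum only through the 8 h sample, so they could only be counted as higher. In Rad21-/- cells C3, with 17 untreated UMIs, also met it only through that sample. The counts of 9 and 8 thus carry little weight beyond C3, Mt1 and Mt2. These genes were at 2.57, 0.99 and 3.88 in wild-type cells and at 4.00, −0.51 and 0.96 in Rad21-/- cells. Against wild-type cells at 8 h, 1 of the 10 was at least 2-fold higher in Rad21-/- cells (9.33% of all genes tested were) and 4 were at least 2-fold lower (4.64% were). Steap4, a metalloreductase, was at 1.45 (0.99 to 1.92), Mt2, a metallothionein that binds zinc and copper, at −2.48 (−2.62 to −2.35) and Cfb at −1.46 (−1.72 to −1.21). The median of the 10 was −0.68, beside 0.21 for all genes.

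Genes of a list of cytokines tied to the induction of these genes were present. The list also held Il10 and the antagonist gene Il1rn, so it is not a list of inducers alone. Of 9 on the list, 6 had enough UMIs, and 6 of 6 were at least 2-fold higher at 8 h than untreated in both genotypes, beside 6.85% (wild-type) and 6.71% (Rad21-/-) of all genes. Il1a, Il1b and Il6 had at most 4 untreated UMIs in either genotype, so they could only be counted as higher. Tnf had 11 untreated UMIs in wild-type and 5 in Rad21-/- cells, and Il1rn had 9 in Rad21-/- cells. These too met the minimum only through the 8 h sample. The counts of 6 thus carry little weight beyond Il10 and, in wild-type cells, Il1rn. Il1b had no UMI in untreated cells and 2140 at 8 h in wild-type and 2795 in Rad21-/- cells, a log2 ratio between genotypes of 0.23 (0.15 to 0.31). Already at 2 h, 7 of 7 cytokine genes with enough UMIs were at least 2-fold higher than untreated in wild-type cells and 4 of 4 in Rad21-/- cells. Of all genes, 3.77% and 3.96% were, and Saa3 was in both genotypes. Here too the cytokine genes met the minimum only through the LPS sample, except Il10 and, in wild-type cells, Il1rn. The same holds for Saa3 in Rad21-/- cells. Between genotypes at 2 h, 5 of 8 were at least 2-fold lower in Rad21-/- cells, beside 5.32% of all genes. At 8 h, 3 of 6 were at least 2-fold lower in Rad21-/- than in wild-type cells (4.64% of all genes), where the log2 ratio of Il6 was −2.37 (−2.73 to −2.03), that of Il1a −2.27 (−2.77 to −1.80) and that of Il1rn, the interleukin-1 receptor antagonist, −2.34 (−2.45 to −2.22). The log2 ratio of Tnf was 0.002 (−0.11 to 0.12). Of 7 receptor genes of the listed cytokines with enough UMIs at 8 h, 1 was at least 2-fold lower in Rad21-/- cells (4.64% of all genes were). None was at least 2-fold higher (9.33% were), and 1 call among 7 genes says little about the list. The lower gene was the TNF receptor gene Tnfrsf1b at −1.45 (−1.65 to −1.26). In wild-type cells its ratio of 8 h against untreated was 4.45, while those of the IL-6 receptor genes Il6ra and Il6st were −1.57 and −1.26.

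Of 11 NF-kappaB, C/EBP and STAT genes, 6 in wild-type and 8 in Rad21-/- cells were at least 2-fold higher at 8 h than untreated (6.85% and 6.71% of all genes were). Nfkbiz, which encodes the NF-kappaB cofactor IκBζ, was at 3.28 (2.54 to 4.12) and Cebpb at 2.66 (2.46 to 2.87) in wild-type cells. Between genotypes at 8 h, Cebpb was the 1 of 11 past 2-fold (4.64% of all genes were lower and 9.33% higher), lower in Rad21-/- cells at −1.65 (−1.79 to −1.50). Nfkbiz was at 0.23 (−0.07 to 0.53) and Stat3 at −0.86 (−1.15 to −0.57). A list of receptor genes tied to serum amyloid A had 5 genes with enough UMIs at 8 h, Fpr1, Fpr2, Tlr2, Tlr4 and P2rx7. Binding of the protein by each was not examined here. Fpr2, a formyl peptide receptor, went from 2 to 279 UMIs in wild-type cells, a log2 ratio of 7.02 (5.15 to 10.07), and Fpr1 from 1 to 128 UMIs. At 8 h, 3 of these 5 listed genes were at least 2-fold lower in Rad21-/- cells, beside 4.64% of all genes. They were Fpr2 at −2.05 (−2.44 to −1.68), Fpr1 at −1.60 (−2.12 to −1.11) and Tlr4 at −1.04 (−1.65 to −0.45). Tlr2 was at 0.47 (0.16 to 0.78) and P2rx7 at 0.004 (−1.02 to 1.04).

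Relatives of Marco and Slpi had their own values. Of 7 other scavenger receptor genes tested in wild-type cells, 1 was at least 2-fold higher at 8 h than untreated (6.85% of all genes were) and 2 were at least 2-fold lower (17.7% were). The class A receptor gene Msr1 was at 1.9 (1.68 to 2.13), Stab1 at −2.06 (−2.35 to −1.77) and Scarb1, the high-density lipoprotein receptor, at −1.93 (−2.43 to −1.45). At 8 h, Scarb1 and Stab1 were higher in Rad21-/- than in wild-type cells by 1.88 (1.41 to 2.37) and 1.16 (0.85 to 1.47), and Msr1 was at −0.09 (−0.23 to 0.04). Wfdc17, which like Slpi has a WAP domain, was at 2.60 (2.27 to 2.94) at 8 h against untreated in wild-type cells and at −2.67 (−3.00 to −2.36) in Rad21-/- against wild-type cells at 8 h. Grn, whose progranulin product Slpi protects from elastase, was at −0.65 (−0.74 to −0.56) and 0.42 (0.33 to 0.51). Of a list of 7 lipocalins and lipocalin 2 receptors, only Lrp2 could be counted, at 0.19 and −0.41.

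Across the 6 samples, the genes most like each member by Pearson r of log2(CPM + 1), among 2313 genes that reached 100 CPM in a sample and with the 6 genes themselves left out, were Msr1 (0.997), the pseudogene Txn-ps1 (0.996) and the guanylate-binding protein gene Gbp3 (0.993) for Saa3. Gm8394 (0.993), Cfb (0.992) and the carbonic anhydrase gene Car13 (0.989) were closest to Saa2, and Gm8394 (0.995), Gm8648 (0.995) and the nitric oxide synthase gene Nos2 (0.993) to Saa1. Nos2 stood at 1280 CPM in wild-type and 159 in Rad21-/- cells at 8 h. Arap1 (0.995), Pde2a (0.994) and Gm13835 (0.992) were closest to Lcn2, and the interferon-inducible gene Ifi202b (0.997), Ms4a4c (0.997) and Sp110 (0.994) to Slpi. Marco had too few UMIs. Each r here is among the highest of 2313 genes over only 6 samples and does not reflect the size of a difference. At 8 h, Arap1 was at 152 CPM in wild-type and 141 in Rad21-/- cells, where Lcn2 was at 759 and 197. Over the 253 wild-type cells at 8 h, 4050 genes were compared. The highest rho with Saa3 among genes other than the 6 were those of Prdx5 (0.30), a peroxiredoxin, Sod2 (0.29), the mitochondrial superoxide dismutase, and Cebpd (0.28). In Rad21-/- cells the same pairs had a rho of 0.41, 0.58 and −0.01. For Saa2 they were Fcer1g (0.37), Sod2 (0.29) and Prdx5 (0.28), with −0.003, 0.44 and 0.38 in Rad21-/- cells, and for Lcn2 Cfb (0.23), Gm20547 (0.23) and Glyr1 (0.22). For Saa1 and Slpi no rho with such a gene exceeded 0.26. The lowest rho among the compared genes were −0.30 for Saa3 (Rgs1), −0.25 for Saa2 (Gm28437) and −0.22 for Lcn2 (Naa50), so the highest are 1 end of a spread around 0.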

How the data were processed

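MARS-seq counted transcripts of single bone marrow-derived macrophages in 6 samples, 1 per genotype and time. The values the authors deposited are raw UMI counts, 1 column per cell. Per their methods, reads were mapped to GRCm38.p4 with Gencode M8, only unambiguously mapped reads were used, and reads sharing a gene and UMI were collapsed. The submitters' processing notes also name FastQC, GRCh38.p5 and CanFam3.1. The columns gave each cell its sample, pool and well, and 1 symbol on 2 rows was summed. Wells above 25000 UMIs were left out.

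A level is the summed UMIs of a gene per 1000000 UMIs (CPM) of a sample, or of a cell where stated. Shares carry exact Clopper-Pearson intervals, levels exact Poisson intervals and log2 ratios conditional exact binomial intervals, all at 95%. They and the limit of 3 counts for a count of 0 cover counting error only. Doublets were not called, since cells were sorted singly. Python 3.11.15, numpy 2.4.6, pandas 2.3.3, scipy 1.17.1, Biopython 1.88 and matplotlib 3.10.9 were used. Steps over many genes were tested on simulated data. Promoters came from RefSeq, GRCm38.p6. The stricter NF-kappaB consensus was added after the looser motif was seen in nearly every other promoter.

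The genes, the lists, the limit of 25000 UMIs and the tests were chosen with earlier results of these data known. The text names the 6 genes, Rad21, up to 3 genes per list with the largest ratio at 8 h in wild-type cells or between genotypes, and the 3 genes most like each member. Tlr2, Nfkbiz, Il1b, Tnf and Msr1 between genotypes, Il10, the genes with the lowest rho and the marker genes were added for comparison. Alternatives changed depth, weights, denominators, wells and pools.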

Additional observations from a re-analysis of the deposited data

Results flagged for a closer look

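Lcn2 differed in direction between times. Its log2 ratio of Rad21-/- against wild-type cells was 2.26 at 2 h (−0.90 to 7.83), from 5 UMIs in 5 Rad21-/- cells and 1 UMI in 1 wild-type cell, and −1.95 at 8 h. At 2 h the level was higher in 3 and lower in 1 of 4 pools with enough cells of both genotypes, and 0 of the 5 Rad21-/- cells with Lcn2 had a Saa3 UMI. The change of direction was not tested.

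For Slpi, the log2 ratio of 2 h LPS against untreated was 0.27 (−1.34 to 1.88) in the wild type and −0.0145 (−2.79 to 2.55) in the Rad21-/- sample. Both intervals include 0, both ratios rest on at most 8 UMIs per sample, and the difference between genotypes was not tested.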

How the results depend on the processing

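Of 538 recomputed values, 518 stayed within the counting interval (for the level per positive cell, within 1 SD) and none whose interval lay on 1 side of 0 changed direction. The Slpi difference in fraction at 8 h (Rad21-/- minus wild-type), −0.37 percentage points (−6.06 to 5.47), was 0.21 with all wells kept and −2.53 to 1.14 when single pools were left out. With UMIs per cell in place of a scaled level, the log2 ratio of Rad21-/- against wild-type cells at 8 h was −1.05 for Saa2, −0.91 for Saa3 and −1.60 for Lcn2. With at least 2 UMIs to call a cell positive, the difference in fraction at 8 h (Rad21-/- minus wild-type, in percentage points) was −14.6 for Saa1, −29.1 for Saa2 and −41.8 for Lcn2, and for Lcn2 it was −40.3 after thinning to 3800 UMIs. The share of cells with Saa2 and Saa3 was 63.4% in wild-type and 25.9% in Rad21-/- cells after thinning. Without the cell with the most UMIs, chosen as an alternative after the data were seen, the Saa3 ratio between genotypes at 2 h was −3.22. Leaving out each pool in turn gave Saa3 log2 ratios of 7.97 to 8.94 for 8 h against untreated in wild-type and 9.70 to 12.85 in Rad21-/- cells, 1.73 to 2.77 and 1.88 to 6.03 for 2 h against untreated, and −5.70 to −2.23 untreated, −3.38 to −1.24 at 2 h and −1.30 to −1.23 at 8 h between genotypes. Between genotypes at 8 h it gave −1.72 to −0.60 for Slpi and −1.30 to −0.26 for Marco, and for Slpi at 8 h against untreated 2.13 to 3.07 in wild-type and 2.40 to 3.45 in Rad21-/- cells. The causes of these shifts were not tested. Among all genes, those at least 2-fold higher at 8 h than untreated with a minimum of 30, 10 and 100 UMIs numbered 765, 1233 and 480 (6.85, 7.66 and 9.35%) in the wild type and 790, 1391 and 449 (6.71, 8.39 and 7.78%) without Rad21, and those at least 2-fold lower in Rad21-/- cells at 8 h numbered 518, 976 and 305 (4.64, 6.07 and 5.74%). No paired analysis was possible because each group is 1 sample, and the genotypes within shared pools are set side by side without a test. Depth limits the fractions of Marco and Slpi and all values before 8 h, including those of Saa3. In Rad21-/- cells the Saa3 fraction was 2.62% untreated and 11.4% at 2 h, and 0.91% and 7.89% after thinning.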
